A study of Bos taurus with 6 samples.

Results

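The muscle-specific miRNAs, or myomiRs, were taken from the miRNA part of the study's deposited table by name: bta-miR-1, bta-miR-133a, bta-miR-133b, bta-miR-133c, bta-miR-206, bta-miR-208b, bta-miR-499 and bta-miR-486, with or without an arm suffix. These 8 miRNAs stand among 765 miRNAs in the table, and bta-miR-208a, also sought by name, is not listed there. Small RNA was sequenced from primary myoblasts of fetal beef cattle longissimus dorsi muscle, in 3 cultures treated with 20 μM resveratrol dissolved in DMSO (RSV group) and 3 cultures that received DMSO alone (DMSO group). Both groups were kept in differentiation medium for 4 days, and neither carries a genetic change by the labels. The study describes 3 independent experiments per group and does not say whether they came from different fetuses, so the p-values measure the spread between these cultures.

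A miRNA is a short RNA that guides the Argonaute protein to matching sites in mRNAs and so lowers their translation or stability. The myomiRs are switched on with muscle differentiation by MyoD, myogenin, MEF2 and SRF. miR-1 and miR-206 share a seed, the stretch that pairs with targets, and both are known to promote differentiation, while the miR-133 miRNAs are known for effects on myoblast proliferation through SRF. miR-208b and miR-499 are carried in introns of myosin heavy chain genes and belong to the slow, oxidative fiber programme. miR-486, which is enriched in muscle, is abundant in red blood cells as well. In the RefSeq annotation of ARS-UCD2.0, MIR208B lies within MYH7, MIR499 within MYH7B, MIR486 within ANK1, and MIR1-2 with MIR133A-2 within MIB1. MIR206 and MIR133B are each other's nearest miRNA genes, as are MIR1-2 and MIR133A-2, and the genes MIR133C and MIR133A-1 overlap each other.

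RSV treatment up-regulated bta-miR-499, whose mean was 2.48-fold that of DMSO, and this was the only call among the 3 myomiRs that entered the main test. The call was lost when any 1 DMSO library was left out. Calls over all tested miRNAs then also fell, from 11 higher and 9 lower to at most 3 higher and 4 lower. The 4 most abundant myomiRs, bta-miR-206, bta-miR-1, bta-miR-133a and bta-miR-133b, differed by log2 ratios of −0.13 to 0.07 between the group means (0.02 to 0.21 when scaled by total miRNA reads), and no test was made for them here. bta-miR-133c and bta-miR-208b, the others of the 3, had overlapping groups and were not called, and neither was bta-miR-486, whose library values rest on an added assumption.

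The deposited table gives 1 mean of normalized reads per group, that is, reads divided by the size factor that scales each library for its depth. Reads of single libraries were worked out from the digits of these means where only 1 combination of whole reads gave the mean, which held for 583 miRNAs. Libraries recovered in this way carry no replicate number and are lettered a, b and c by falling size factor, from 1.54, 1.29 and 0.935 in RSV and from 0.922, 0.823 and 0.729 in DMSO. If the libraries of a group had equal normalized totals, the size factors would put them at about 5350658 to 10232052 miRNA reads. Total reads of single libraries were not recovered. The sum over all 765 group means was about 6637960 normalized reads in RSV and 7340620 in DMSO, a log2 difference of −0.15, while the median log2 ratio of the 391 miRNAs averaging 10 or more normalized reads was 0.005. Scaling by total miRNA reads here means dividing each group mean by this sum for its group, which adds 0.15 to every log2 ratio. The libraries were not rescaled singly.

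The cells held the myomiRs that mark skeletal muscle. The 8 myomiRs made up 2.58% of all miRNA reads in RSV and 2.51% in DMSO. bta-miR-206 ranked 10 among the 765 miRNAs by level, bta-miR-1 ranked 24, bta-miR-133a 64 and bta-miR-133b 80. bta-miR-486, bta-miR-133c, bta-miR-499 and bta-miR-208b followed at ranks 168, 196, 259 and 309. bta-miR-206 supplied 74.6% of the myomiR reads in RSV and 75.7% in DMSO, and bta-miR-1 supplied 16.9% and 16.8%. The myosin-borne pair was scarce: bta-miR-499 supplied 0.0670% of the myomiR reads in RSV and 0.0250% in DMSO, and bta-miR-208b 0.0178% and 0.0177%. Mature miRNAs are of nearly equal length, so these levels are read counts without division by length, and the ligation of adapters can favour some sequences over others.

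**Figure D1:**
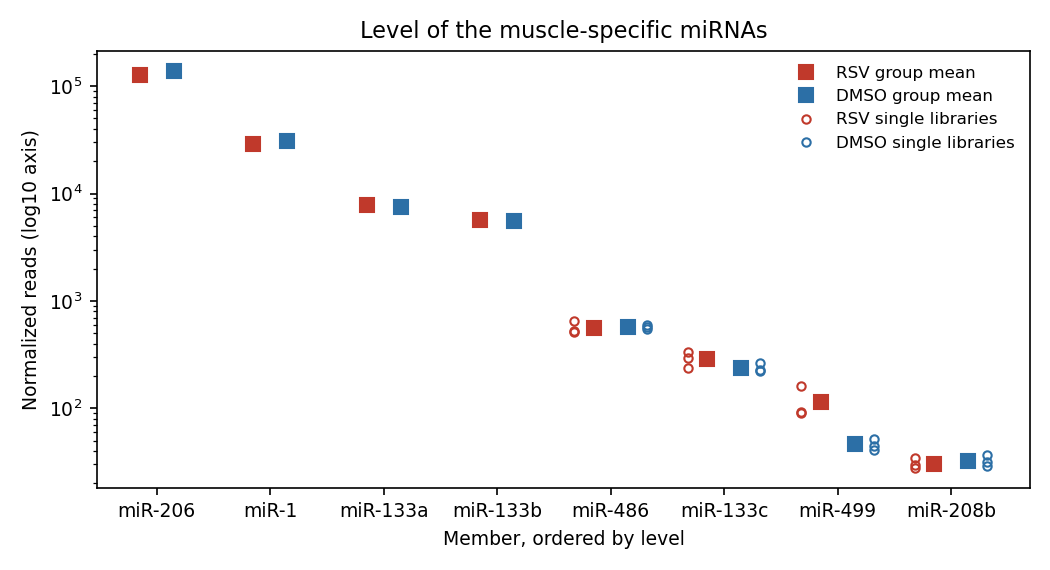
Normalized reads (log10 axis) of the 8 myomiRs in order of level, with squares for the group means of RSV and DMSO and open circles for the 3 single libraries of a group where these could be recovered. Levels run from about 133547 normalized reads for bta-miR-206 to 31.5 for bta-miR-208b, and the squares of a miRNA stand clearly apart for bta-miR-499.

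bta-miR-206, the myomiR that is restricted to skeletal muscle, had the authors' mean of 127629 normalized reads in RSV and 139464 in DMSO. The log2 ratio of these means was −0.13, with a 95% interval of −0.13 to −0.12 for counting error only, and it turned to 0.02 when scaled by total miRNA reads. The direction of bta-miR-206 thus depended on the scaling. bta-miR-1, shared by heart and skeletal muscle, had means of 28912 in RSV and 30883 in DMSO, a log2 ratio of −0.10 by size factors and 0.05 by totals. The ratio of bta-miR-1 to bta-miR-206, which scaling a group as a whole cannot change, was 0.227 in RSV and 0.221 in DMSO. Reads of both could not be recovered for single libraries, so their spread between cultures was not analysed here.

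bta-miR-133a had means of 7817 normalized reads in RSV and 7453 in DMSO, a log2 ratio of 0.07 by size factors and 0.21 by totals. bta-miR-133b, which is encoded beside miR-206, had means of 5687 in RSV and 5550 in DMSO, a log2 ratio of 0.04 by size factors and 0.18 by totals. Mature miR-133a and miR-133b are nearly identical in sequence, so the reads of one may in part be counted for the other. The ratio of bta-miR-133a to bta-miR-133b was 1.37 in RSV and 1.34 in DMSO. The ratio of bta-miR-206 to its genomic neighbour bta-miR-133b was 22.4 in RSV and 25.1 in DMSO, and that of bta-miR-1 to bta-miR-133a was 3.70 and 4.14. Both ratios were lower in RSV, by 0.16 on the log2 scale in either case, and neither difference was tested.

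These 4 log2 ratios lay between the quartiles of the abundant miRNAs. Over the 146 miRNAs of the table that averaged 1000 or more normalized reads, the log2 ratio had a median of −0.02, with quartiles of −0.16 and 0.11. Among the 66 tested miRNAs with recovered reads that averaged 100 or more normalized reads, the standard error of the log2 fold change over libraries had a median of 0.12 and ran from 0.089 to 0.74. The counting intervals of the 4 abundant myomiRs are far narrower than this, and they do not include the spread between cultures.

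limma voom, which fits weighted linear models to log2 counts, was run on the recovered reads of the 209 miRNAs averaging 10 or more normalized reads, with Benjamini-Hochberg adjustment. It called 11 miRNAs higher in RSV (5.26%) and 9 lower (4.31%) at an adjusted p under 0.05, or 9.57% in either direction. Of the 3 myomiRs among them, bta-miR-499 was called higher and none lower. Groups did not overlap for 44 of the 209 miRNAs with RSV higher (21.1%) and for 25 with RSV lower (12%), and bta-miR-499 was the only myomiR of the 3 without overlap. By the group means alone, 21 of 391 miRNAs were at least 1.5-fold higher in RSV (5.37%) and 17 at least 1.5-fold lower (4.35%). Of the 8 myomiRs, 1 was at least 1.5-fold higher and 0 were at least 1.5-fold lower.

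bta-miR-499 is carried in an intron of MYH7B and is known to accompany slow myosin expression. Its normalized reads were 91.5, 162 and 89.8 in RSV libraries a, b and c, and 41.2, 44.9 and 52.1 in DMSO libraries a, b and c. The lowest RSV library stood above the highest DMSO library, and RSV library b stood well above the other RSV libraries. These values stood on 84 to 210 reads per RSV library and 37 to 38 per DMSO library. The group means were 115 ± 41.4 in RSV and 46.1 ± 5.55 in DMSO (SD, n = 3 each), and the coefficient of variation in RSV was 36.1%.

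The log2 fold change of bta-miR-499 was 1.27, with a standard error of 0.28, a 95% interval of 0.64 to 1.89 and a limma voom adjusted p of 0.025. Among the 209 miRNAs it ranked 3 from the most increased and 8 by the size of the change in either direction, and 11 by p-value. It ranked 4 from the most increased among the 391 miRNAs by the ratio of group means. On the normalized reads, the exact permutation test (two-sided) gave p = 0.10, which is the smallest that 3 libraries against 3 allow. Scaled by totals, the log2 ratio of its group means was 1.46, against 1.31 by size factors.

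The log2 fold change of bta-miR-499 ran from 0.98 to 1.42 over the 6 fits that each omit 1 library. Its call was lost in the fits that omit a DMSO library, in which fewer miRNAs were called over the whole set. Without RSV library b, the log2 fold change was 0.98, with a standard error of 0.15 and a limma voom adjusted p of 0.0033. Without DMSO library a, b or c it was 1.19, 1.26 or 1.36, and the adjusted p by limma voom rose to 0.15, 0.089 or 0.098. Over all tested miRNAs, the same fits called 1, 3 or 1 higher in RSV and 4, 4 or 3 lower, against 11 and 9 with all libraries. The groups with 2 libraries are assumed to vary like the others in these fits.

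bta-miR-208b, the other slow-fiber myomiR, is carried within MYH7 and was the scarcest of the 8. Its normalized reads were 34.4, 29.4 and 27.8 in RSV libraries a, b and c and 36.9, 29.1 and 31.6 in DMSO libraries a, b and c. The groups overlapped over nearly their whole range. Only 23 to 53 reads per library stood behind these values. The group means were 30.5 ± 3.44 in RSV and 32.5 ± 3.96 in DMSO (SD, n = 3 each). The log2 fold change was −0.09, with a standard error of 0.17 and a limma voom adjusted p of 0.80, and its 95% interval of −0.48 to 0.31 includes changes of that size in either direction. The log2 ratio of its group means was −0.09 by size factors and 0.05 by totals.

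The ratio of bta-miR-499 to bta-miR-208b within a library does not depend on scaling. On the log2 scale it was 1.41, 2.47 and 1.69 in RSV libraries a, b and c, and 0.16, 0.62 and 0.72 in DMSO libraries a, b and c. All 3 RSV libraries stood above all 3 DMSO libraries, with means of 1.86 ± 0.55 and 0.50 ± 0.30 (SD, n = 3 each). The difference was 1.35 (exact permutation p = 0.10, two-sided and the smallest possible, with an adjusted p of 0.20 over the 6 pairs of myomiRs compared in this way). The ratios of bta-miR-486 and of bta-miR-133c to bta-miR-499 were both lower in RSV without overlap, by differences of −1.31 and −1.0 on the log2 scale, with the same p-values. The other 3 pairs, made up of bta-miR-486, bta-miR-133c and bta-miR-208b, overlapped between the groups, with differences of −0.31 to 0.36. Every ratio with bta-miR-486 rests on the added assumption behind its RSV library values.

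**Figure D2:**
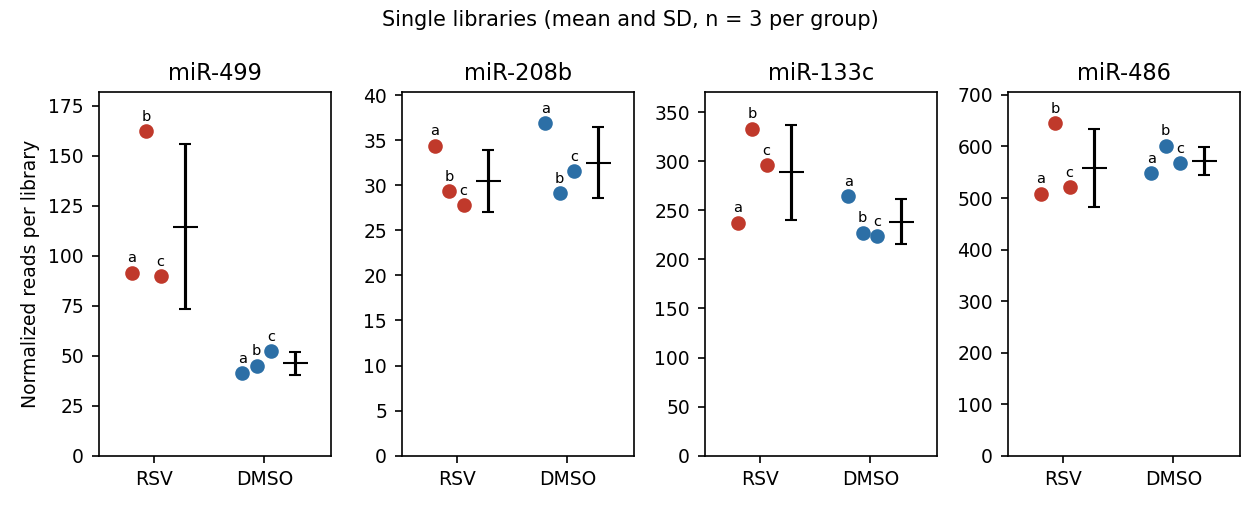
Normalized reads per library (linear axes from 0) of bta-miR-499, bta-miR-208b, bta-miR-133c and bta-miR-486 in RSV and DMSO, with libraries lettered by falling size factor and bars for the mean and SD (n = 3). The groups are apart for bta-miR-499, where RSV library b reaches 162, and overlap for bta-miR-208b, bta-miR-133c and bta-miR-486.

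bta-miR-133c is annotated over the same stretch as MIR133A-1, and its reads may in part derive from that gene. Its normalized reads were 237, 333 and 296 in RSV libraries a, b and c and 265, 227 and 224 in DMSO libraries a, b and c. RSV libraries b and c stood above all DMSO libraries, while RSV library a lay within the DMSO range. The group means were 289 ± 48.2 in RSV and 238 ± 22.7 in DMSO (SD, n = 3 each). The log2 fold change was 0.26, with a standard error of 0.14, a 95% interval of −0.05 to 0.58 and a limma voom adjusted p of 0.28. Without RSV library a it was 0.40, with a limma voom adjusted p of 0.088, and without RSV library b it was 0.16, with a limma voom adjusted p of 0.54. The ratio of bta-miR-133a to bta-miR-133c was 27.1 in RSV and 31.3 in DMSO.

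For bta-miR-486, 3 combinations of whole reads gave the RSV mean and 1 gave the DMSO mean. Only 1 of the 3 kept the RSV libraries within 3-fold of each other, with a highest to lowest ratio of 1.27, and the others had ratios of 9.36 and 59.9. The combination at 9.36 put 138, 1294 and 243 normalized reads in RSV libraries a, b and c. Taking the combination within 3-fold (ratio 1.27), the normalized reads were 509, 645 and 521 in RSV libraries a, b and c. In DMSO libraries a, b and c they were 548, 601 and 568. RSV library b was the highest of all 6 and the other RSV libraries were the lowest. The group means were 558 ± 75.7 in RSV and 572 ± 27 in DMSO (SD, n = 3 each). In a fit over the 241 miRNAs recovered under this wider rule, of which 22 (9.13%) were called in either direction, its log2 fold change was −0.04, with a standard error of 0.11, a 95% interval of −0.28 to 0.20 and a limma voom adjusted p of 0.85. Without RSV library b it was −0.15. Scaled by totals, the log2 ratio of its group means was 0.11 in place of −0.04.

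bta-miR-451, a marker of red blood cells, was highest in RSV library b, in which bta-miR-499 and bta-miR-133c were also highest. bta-miR-486 was highest there too under the combination taken, at 645, and under 1 combination set aside, at 1294. The other combination set aside was highest in RSV library a, at 1537. For bta-miR-451 the normalized reads were 66.8, 463 and 81.3 in RSV libraries a, b and c and 70.5, 53.4 and 97.4 in DMSO libraries a, b and c. Other miRNAs that mark blood cells (miR-142, miR-150 and miR-223) summed to 9.08, 3.86 and 174 in RSV and to 37.6 to 74.1 in DMSO, so that they were highest in RSV library c. Among them, bta-miR-142-5p had means of 24.4 in RSV and 13.4 in DMSO, carried by 66.3 in RSV library c, and the other RSV libraries (4.54 and 2.32) lay below all DMSO libraries. bta-miR-223 was at 0 in all RSV libraries and reached 9.60 in DMSO. None of the markers tested was called, with a limma voom adjusted p of 0.47 for bta-miR-451 and 0.11 for bta-miR-150. The log2 fold change of bta-miR-150 was −2.41, with a standard error of 0.84. It had 3.24, 1.55 and 72.7 normalized reads in RSV libraries a, b and c, against 25.5 to 41.2 in DMSO. bta-miR-122, a liver miRNA, had 200.5 normalized reads in RSV library a, against 17 to 87.8 in the other libraries. Endothelial miR-126 summed to at most 374 in RSV and 322 in DMSO, 6 epithelial miRNAs to at most 137 in RSV and 125.8 in DMSO, and neural bta-miR-9-3p reached at most 69.5 in RSV and 62.9 in DMSO. The other arm, bta-miR-9-5p, was far more abundant, with group means of 1109 in RSV and 1097 in DMSO, and had no library values. Matching by exact number and letter found no miR-144 (erythroid) and no miR-124 (neural). bta-miR-124a, left out by this match, had means of 0.36 in RSV and 3.44 in DMSO. These stood on at most 1 read in an RSV library and 6 in a DMSO library. Of the 16 matched markers of other cells, 15 had library values and none was at 0 in both groups. The sum of these 15, which leaves out bta-miR-9-5p, ran from 590 to 1023 in RSV, highest in library b, and from 508 to 750 in DMSO. The part of these cells in the myomiR levels was not tested, and without RSV library b the log2 fold change of bta-miR-499 was 0.98. In such bulk samples, fewer cells of a type and less RNA per cell cannot be told apart. Over the 209 miRNAs, the median absolute log2 difference of RSV library b from the others of its group was 0.1997, the highest of the 6, against 0.177 to 0.195 for the other libraries.

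**Figure D3:**
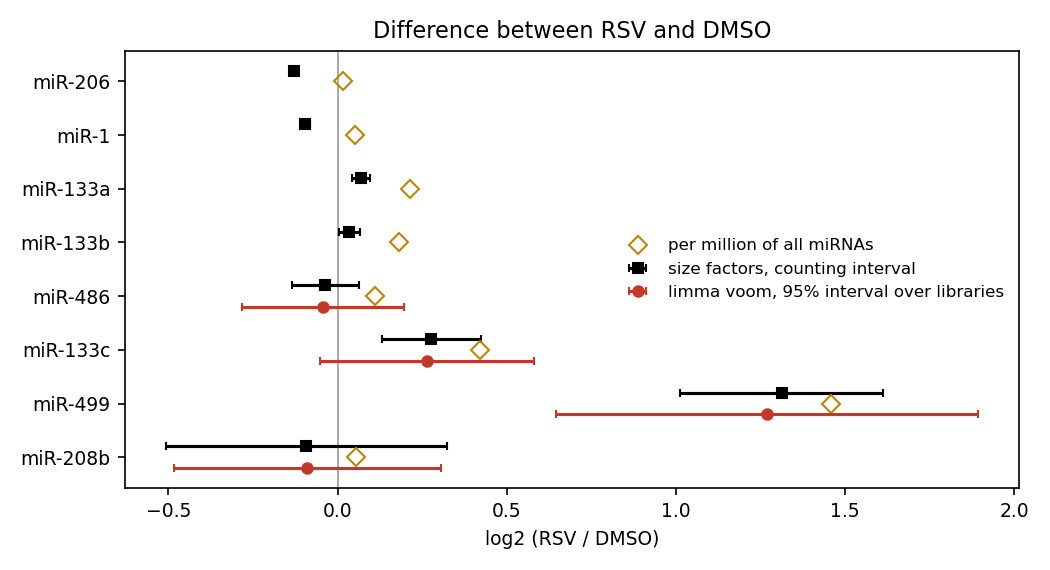
Log2 ratio of RSV to DMSO for the 8 myomiRs, with black squares for the ratio of group means by size factors and its 95% interval for counting error only, open diamonds for the ratio scaled by total miRNA reads, and red circles for limma voom with the 95% interval over libraries where reads were recovered. For bta-miR-499 every interval lies above 0, and for bta-miR-206, bta-miR-1, bta-miR-486 and bta-miR-208b the squares and diamonds lie on opposite sides of 0.

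The order of the 8 levels was the same in both groups. Where single libraries were recovered, neighbours in this order did not overlap within a group, if the combination within 3-fold is taken for bta-miR-486 in RSV. With that combination the lowest bta-miR-486 library stood above the highest bta-miR-133c library, at 509 against 333. In the combinations set aside, the lowest bta-miR-486 library in RSV was at 138 or 25.7, below 333. In DMSO the lowest bta-miR-499 library (41.2) was near the highest bta-miR-208b library (36.9), while in RSV they were at 89.8 and 34.4. Whether neighbours among the 4 most abundant myomiRs differ beyond their spread cannot be said from group means.

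The miRNAs whose values over the 6 libraries ran most like those of a myomiR were sought among the other tested miRNAs, by the root mean square difference of centred log2 values. bta-miR-2344 was nearest to bta-miR-499, at 0.31, followed by novel_227 and bta-miR-2320-3p, both at 0.33. bta-miR-2344 had 112, 117 and 99.4 normalized reads in RSV and 52.1, 54.6 and 42.5 in DMSO, with no library far above the others of its group. For bta-miR-133c the nearest were bta-miR-29b (0.11), bta-miR-95 (0.11) and bta-miR-2431-5p (0.12), and for bta-miR-208b they were bta-miR-2483-5p (0.084), bta-miR-193a-5p (0.098) and bta-miR-2285u (0.10). The nearest miRNA was farther from bta-miR-499 than from the other tested myomiRs. This measure can grow with the size of a miRNA's own change over the libraries, which was largest for bta-miR-499.

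**Figure D4:**
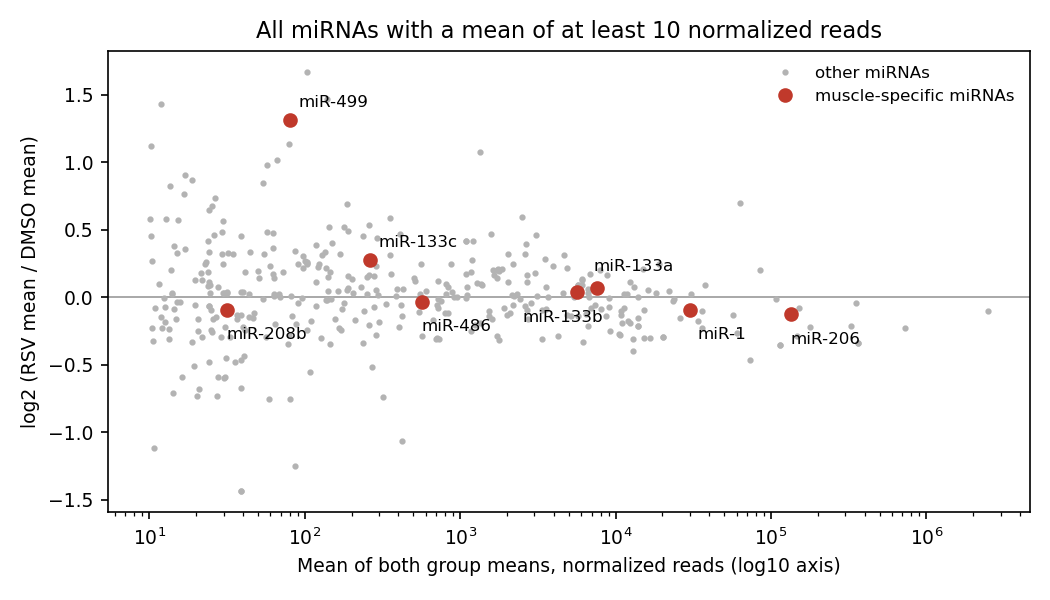
Log2 ratio of the RSV to the DMSO group mean against the mean of both (log10 axis, normalized reads) for the 391 miRNAs averaging 10 or more normalized reads, with the 8 myomiRs in red. bta-miR-499 lies at 1.31, near the top of the plot, and the other 7 myomiRs lie between −0.13 and 0.28, where most miRNAs lie.

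Other miRNAs with known roles in myoblast proliferation or differentiation, which are not specific to muscle, were set beside the myomiRs. Of 28 such miRNAs, 26 were matched to 32 entries of the table, all averaging 10 or more normalized reads. Their median log2 ratio was −0.10 by size factors, against 0.005 over all 391 miRNAs, with 11 above 0 and 21 below. Scaled by totals it was 0.049, with 20 above 0 and 12 below, so the direction of the list depended on the scaling. bta-miR-432 was the only entry past 1.5-fold, with means of 2993 in RSV and 1982 in DMSO, a log2 ratio of 0.59. Of the 6 entries that could be tested, bta-miR-365-5p was called lower, with a log2 fold change of −0.51, a standard error of 0.13 and a limma voom adjusted p of 0.042. The other arm, bta-miR-365-3p, had means of 2593 in RSV and 2895 in DMSO. bta-miR-29b, a repressor of collagen genes, had a log2 fold change of 0.22, with a standard error of 0.14 and a limma voom adjusted p of 0.37, and was not called.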

How the data were processed

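RNA of 3 RSV and 3 DMSO cultures was sequenced, and samples were grouped by their titles. Per the paper's methods, the authors mapped 50-bp reads to UMD_3.1.1 (bosTau8) with Bowtie 0.12.9, named miRNAs by miRBase and miRDeep2, and compared the groups with DESeq. The deposited table gives, per miRNA, each group's mean of read counts divided by size factors; the authors' fold changes and P-values, also held there, were not used, nor was the mRNA part. The values are no raw count.

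Each mean, printed to at most 10 significant digits, was written as a sum of whole reads over size factors, for means under 1000. Of 619 such miRNAs, 583 had 1 combination per group. Accepting the only combination within 3-fold raised this to 615; that rule and the ratios between myomiRs within a library were chosen after seeing the data. Among miRNAs with 1 combination and a mean of at least 100, 1 of 68 in RSV and 0 of 62 in DMSO spread beyond 3-fold. The exception in RSV was bta-miR-451, at 66.8, 463 and 81.3 in libraries a, b and c. The rule would set aside such a spread for bta-miR-486, so it cannot show that there was none. The recovery of reads from 1 combination and limma voom (limma 3.58.1, R 4.3.3) were run on simulated data. The spread set there between libraries, beyond counting error, was smaller than that of bta-miR-499 in RSV. For the recovery of reads, the highest means were left out of the simulation. Library sizes were set by the size factors. Python 3.11.15 with numpy 2.4.6, pandas 2.3.3, scipy 1.17.1 and matplotlib 3.10.9 served for the rest.

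The counting interval of a ratio of means takes reads as Poisson and covers counting error only. Members and lists were chosen with earlier results of these data known. All members were named, and for each tested member the 3 miRNAs with the most similar values, and of the lists any miRNA past 1.5-fold that averaged 10 or more normalized reads. Others were named after their values were seen. RefSeq paired no symbols with the table's mRNA identifiers (0 Ensembl identifiers), so host genes were not analysed here.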

Additional observations from a re-analysis of the deposited data

How the results depend on the processing

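The count of myomiRs called higher in RSV (1) and lower (0) was the same with TMM normalization, no minimum mean, limma on log2(normalized reads + 1) or + 0.1, a tolerance 10 times wider and the wider rule for recovered reads. Leaving out each library in turn gave 0 to 1 called higher and 0 called lower, with 0 without DMSO library a, b or c. Over all miRNAs, leaving out each library gave 1 to 12 called higher and 3 to 10 lower, against 11 and 9 with all libraries. The fewest were called without a DMSO library. A tolerance 10 times wider gave 6 and 4, without bta-miR-133c, and no minimum mean gave 14 lower. At the wider tolerance the reads of bta-miR-133c were not unique, with 3 combinations in RSV and 2 in DMSO. Fewer or more miRNAs were tested in these cases. With a minimum mean of 100, 0 myomiRs were past 1.5-fold higher, since bta-miR-499 has a mean of 80.3. By a minimum fold of 2, 1 was. Scaling by total miRNA reads turned the sign of the log2 ratio for 4 of 8 myomiRs and moved their median from −0.0004 to 0.14, or 0.15 without the myomiRs in the total. A pseudocount of 1 or centring on the median turned no sign. The scaling of the list of other myoblast miRNAs by totals was added after seeing the data. No paired analysis was possible because the recovered libraries carry no replicate number. Depth limits bta-miR-208b most, with 23 to 53 reads per library, and no replicate error was computed here for the 4 most abundant myomiRs.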
